A study of Mus musculus with 67 samples.

Results

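Liver RNA of wild-type (WT) mice on a high-fat diet was compared in the light phase between time-restricted feeding (TRF), in which food is offered only in a daily window, and ad libitum feeding (AL), in which food is always present. The comparison rests on 8 of the 67 mRNA libraries of the series, chosen by the genotype, feeding and zeitgeber time (ZT, hours after lights on) written in their titles. These are 4 TRF libraries, 2 from ZT4 and 2 from ZT8, and 4 AL libraries, 2 from each of the same times. All 8 came from livers of C57BL/6 mice labelled WT, with no engineered allele named, aged 24 weeks and on the high-fat diet for 12 weeks. Neither the hours of the feeding window nor the sex of the mice is given in the sources used here. Whether libraries of a group stem from different animals is not said in the labels. The p-values therefore reflect library-to-library spread alone, which may be technical. The question put to these libraries was how gene expression in the resting phase differed between restricted and free access to a fat-rich diet.

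As background, mice take most of their food in the dark, and the light phase is when the liver clock turns over. In that clock the proteins CLOCK and BMAL1 switch on the Per, Cry, Nr1d1 and Dbp genes through E-boxes, and the PER, CRY and REV-ERB proteins shut the activators down again. Feeding and insulin raise SREBP1, the main activator of fatty acid synthesis genes, low sterol raises SREBP2, the activator of cholesterol synthesis genes, and bile acids act through the receptor FXR to raise SHP (gene Nr0b2), which represses bile acid synthesis.

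The TRF and AL libraries differed as libraries before any gene was considered. Depth recovered from the steps of the deposited FPKM values (fragments scaled to exon length and library size) was 10.71 to 14.68 M reads in TRF and 11.94 to 13.66 M reads in AL. The GC slope, the log2 deviation of genes from their 8-library mean per 10 points of GC content, was -0.127 and -0.595 at ZT4 and -0.0994 and -0.560 at ZT8 in TRF, against 0.378 and 0.266 at ZT4 and 0.478 and 0.258 at ZT8 in AL. Every TRF library was below 0 and every AL library above it, with means of -0.345 ± 0.269 in TRF and 0.345 ± 0.104 in AL (SD, n = 4 each, exact permutation test, two-sided p = 0.0286, the smallest that 4 against 4 allows). Among 85 genes that lie under a gene on the opposite strand at least 10 times stronger, the summed FPKM was 32.3 ± 7.30 in TRF and 10.7 ± 0.992 in AL, and mt-Nd6, the mitochondrial gene read from the other strand, stood at 8.40 ± 2.42% of mt-Nd5 in TRF and 0.757 ± 0.157% in AL (SD, n = 4 each, exact permutation test, two-sided p = 0.0286 for both). Mitochondrial genes held 5.94 to 10.7% of all FPKM in TRF and 4.19 to 6.91% in AL. The GC slope, the opposite-strand signal and the mt-Nd6 share split the libraries exactly as feeding does, so these and feeding cannot be told apart from the deposited values, whereas the mitochondrial share overlapped (exact permutation test, two-sided p = 0.0857). Counts of calls below are therefore also given on values corrected, library by library, for GC content and exon length, as are most of the genes called.

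A pair of libraries stood apart in other ways. In replicate 1 of AL at ZT8, Mup17, a male-type urinary protein gene, was at 8.72 FPKM, against 2165 to 3573 FPKM in the other 7 libraries, and Moxd1, another male-biased gene, was at 0, against 47.8 to 95.8 FPKM. Cyp2b9, a female-type cytochrome P450 gene, was at 82.4 FPKM in replicate 1 of TRF at ZT8 and 163 FPKM in replicate 1 of AL at ZT8, and at most 0.314 FPKM in the other 6. The haemoglobin gene Hba-a1 was likewise highest in those libraries, at 46.9 FPKM in TRF and 375 FPKM in AL. Over 5067 genes on corrected values, the root mean square log2 difference between these libraries was 0.54, less than the 0.66 between both AL libraries of ZT8. At ZT8 the libraries with the number 2 were also closer across feedings, at 0.40, than the TRF libraries of ZT8 were to each other, at 0.42. Other pairs were closer within a feeding. Replicate 1 of TRF at ZT8 was at 0.39 from replicate 1 of TRF at ZT4. The number 2 libraries of ZT8 were at 0.35 in TRF and 0.36 in AL from the number 2 library of the same feeding at ZT4. Replicate 1 of AL at ZT8 had no library nearer than replicate 1 of TRF at ZT8. Whether the number 1 libraries of ZT8 hold the samples that their labels name was not tested, and every ZT8 value and every mean of both times rests in part on them. Libraries with the same number deviated together from their group means in all 6 pairings of groups, with correlations across genes of 0.15 to 0.63, so counts from a fit with the replicate number as a block are given as well where they differ by over 1.5 times.

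**Figure D1:**
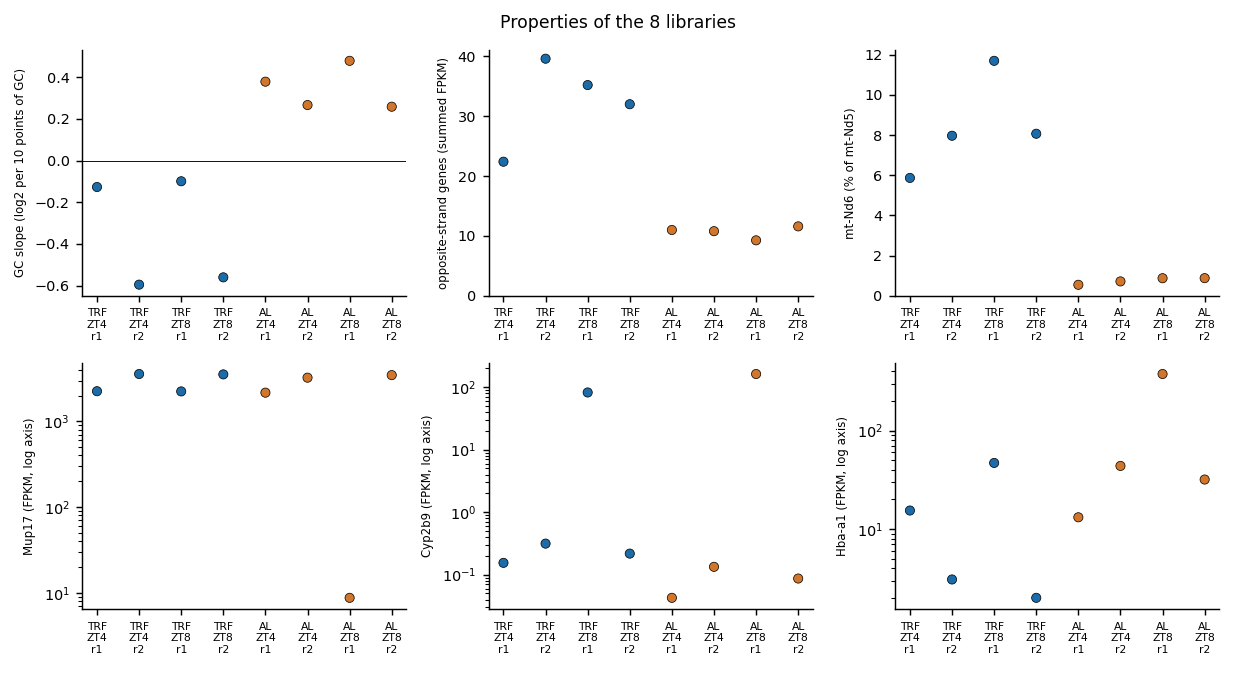
Properties of the 8 libraries, each point 1 library, the 4 TRF libraries (blue) left of the 4 AL libraries (orange). The upper panels show the GC slope, the summed FPKM of 85 opposite-strand genes and mt-Nd6 as a percentage of mt-Nd5, on which TRF and AL do not overlap. The lower panels show Mup17, Cyp2b9 and Hba-a1 in FPKM on log axes, on which replicate 1 of AL at ZT8 is far from the rest and replicate 1 of TRF at ZT8 shares its high Cyp2b9.

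On the deposited values, more genes were called lower than higher in TRF livers, while the median difference over all genes tested was 0. Of the 9955 genes that averaged 1 FPKM or more across the series, 1498 (15%) passed an adjusted p under 0.05 in the mean of ZT4 and ZT8 (limma on log2(FPKM + 1), 1 mean per feeding and time, Benjamini-Hochberg adjustment), 332 higher in TRF (3.34%) and 1166 lower (11.7%). With the replicate block 3892 passed (39.1%), 1622 higher (16.3%) and 2270 lower (22.8%), and all 1498 were among them. Percentages of a list under the block, given below, stand against these shares of 16.3% higher and 22.8% lower. On corrected values 252 of 9564 genes passed (2.63%), 80 higher (0.836%) and 172 lower (1.80%), and with block and correction together 590 passed (6.17%), 237 higher (2.48%) and 353 lower (3.69%). Scaled to the same sum of FPKM, 1342 passed, 554 higher and 788 lower, and voom on recovered reads called 351 higher and 411 lower of 6223 genes. Without both number 1 libraries of ZT8, 1149 genes passed (11.5%), 134 higher (1.35%) and 1015 lower (10.2%), and 1021 of the 1149 were shared. Leaving out 1 library moved the count to 240 without replicate 2 of TRF at ZT4, 336 without replicate 2 of TRF at ZT8, 292 and 258 without replicates 1 and 2 of AL at ZT4, and 622 without replicate 1 of AL at ZT8. The direction followed the GC content of the transcripts. Among the 322 genes with exons of at least 60% GC the median difference was -1.11 and 77.3% passed as lower, whereas among the 564 genes under 40% GC it was 0.51 and 21.6% passed as higher. Both calls, as deposited and corrected, were met with the same sign by 30 genes that rose (0.314%) and 160 that fell (1.67%), and these are named first below where a group holds any. All 4 TRF libraries lay above all 4 AL libraries in 1106 genes (11.1%) and below them in 1685 (16.9%). In bulk liver, fewer cells of a type and less RNA per cell cannot be told apart. All differences are TRF minus AL on the log2(FPKM + 1) scale with their SE, and understate the change of low genes.

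**Figure D2:**
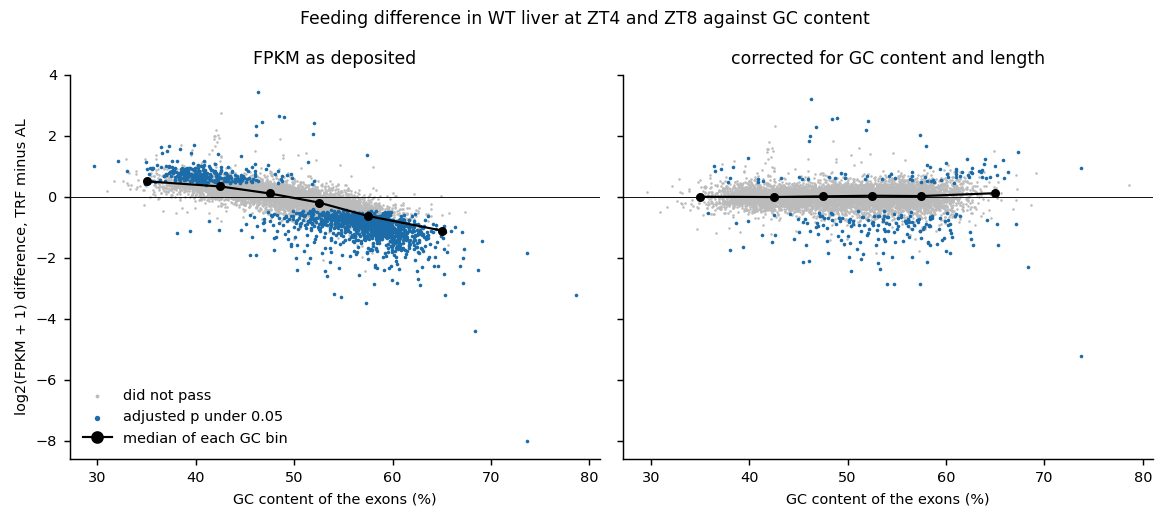
Difference between feedings (TRF minus AL, log2(FPKM + 1), mean of ZT4 and ZT8) against the GC content of the exons in percent, each point 1 of 9564 annotated genes, blue where the adjusted p was under 0.05. As deposited (left) the bin medians, joined by the black line, run from 0.51 under 40% GC to -1.11 at 60% GC and above. After correction (right) they lie near 0 and 252 genes pass.

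Fatty acid synthesis had members lower in TRF both as deposited and corrected. Of 19 members tested 4 passed as lower (21.1%, against 11.7% of all genes) and none as higher, with a list median of -0.38 against 0.00 over all genes. On corrected values 2 passed, both lower, and the block gave 6 lower (31.6%). Srebf1, the gene of the activator SREBP1, was at 16.5 and 6.99 FPKM at ZT4 and 31.6 and 16.5 FPKM at ZT8 in TRF livers, against 44.2 and 30 FPKM at ZT4 and 116 and 66.6 FPKM at ZT8 in AL livers. The highest TRF library, replicate 1 of ZT8, overlapped the lowest AL library, yet within each time both TRF libraries were below both AL libraries. The difference was -1.78 ± 0.34 (adjusted p = 0.0176) as deposited and -0.96 ± 0.18 (adjusted p = 0.042) corrected. Mid1ip1, whose protein helps acetyl-CoA carboxylase to polymerise, was at 10.7 and 8.75 FPKM at ZT4 and 16.2 and 14.0 FPKM at ZT8 in TRF livers, against 22.6 and 20.6 FPKM at ZT4 and 40.8 and 35.3 FPKM at ZT8 in AL livers. No TRF library reached an AL library, and the difference was -1.18 ± 0.14 (adjusted p = 0.00518) as deposited and -0.62 ± 0.11 (adjusted p = 0.0362) corrected. Fads2, the delta-6 desaturase, was at 155 and 143 FPKM at ZT4 and 197 and 233 FPKM at ZT8 in TRF livers, against 339 and 247 FPKM at ZT4 and 423 and 394 FPKM at ZT8 in AL livers. The groups did not overlap, with -0.94 ± 0.18 (adjusted p = 0.0178), and corrected the difference was -0.56 ± 0.18 (adjusted p = 0.159). Slc25a1, the mitochondrial citrate carrier, differed by -0.75 ± 0.16 (adjusted p = 0.0245), but by 0.12 ± 0.22 after correction.

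The enzymes that make the fatty acid chain did not pass. Fasn, the fatty acid synthase, was at 8.21 and 3.05 FPKM at ZT4 and 15.4 and 7.42 FPKM at ZT8 in TRF livers, against 49.9 and 11.5 FPKM at ZT4 and 54.8 and 23.8 FPKM at ZT8 in AL livers. Replicate 1 exceeded replicate 2 in both feedings at both times, and within each number TRF was below AL. The difference was -1.85 ± 0.52 (adjusted p = 0.0501), and it passed with the block, as deposited (adjusted p = 0.00186) and corrected (adjusted p = 0.0346). Acacb, an acetyl-CoA carboxylase, differed by -0.86 ± 0.30 (adjusted p = 0.0907) and passed with the block as deposited only. Acly, which makes cytosolic acetyl-CoA, Acaca, the other carboxylase, Scd1, the stearoyl-CoA desaturase, and Elovl6, an elongase, differed by -0.50 ± 0.22, -0.19 ± 0.21, -0.04 ± 0.50 and -0.05 ± 0.28, none of them passing. Scd1 spanned 214 to 1072 FPKM in TRF and 156 to 1743 FPKM in AL, and replicate 1 of ZT8 was the highest library in both feedings.

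Cholesterol synthesis and uptake genes were lower in TRF for 6 of 25 members (24%, against 11.7% of all genes), with none higher, a list median of -0.52, and no member passing after correction. With the block 9 were lower (36%, against 22.8% of all genes). Among the members that passed were Mvd and Mvk, enzymes of the mevalonate pathway, and Srebf2, the gene of SREBP2. Mvd was at 4.48 and 8.57 FPKM at ZT4 and 2.59 and 3.70 FPKM at ZT8 in TRF livers, against 51.4 and 31.4 FPKM at ZT4 and 4.63 and 21.1 FPKM at ZT8 in AL livers. Replicate 1 of AL at ZT8 fell into the TRF range and the other 3 AL libraries were above it, with -1.97 ± 0.43 (adjusted p = 0.025) and -1.11 ± 0.51 (adjusted p = 0.294) corrected. Mvk was at 5.04 and 7.29 FPKM at ZT4 and 3.06 and 5.43 FPKM at ZT8 in TRF livers, against 36.7 and 30 FPKM at ZT4 and 6.40 and 21.9 FPKM at ZT8 in AL livers, with the same AL library lowest and -1.81 ± 0.35 (adjusted p = 0.0189), and -1.24 ± 0.42 (adjusted p = 0.182) corrected. Srebf2 was at 6.35 and 4.25 FPKM at ZT4 and 4.21 and 4.14 FPKM at ZT8 in TRF livers, against 23 and 10.8 FPKM at ZT4 and 9.77 and 9.47 FPKM at ZT8 in AL livers. All TRF libraries were below all AL libraries, with -1.24 ± 0.24 (adjusted p = 0.0178) and -0.46 ± 0.18 (adjusted p = 0.241) corrected.

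Several other enzymes of the pathway did not pass and varied several-fold between libraries of a feeding. Hmgcs1, the HMG-CoA synthase, was at 68.1 and 460.1 FPKM at ZT4 and 44.3 and 203 FPKM at ZT8 in TRF livers, against 392 and 299.6 FPKM at ZT4 and 47.0 and 132 FPKM at ZT8 in AL livers. In TRF replicate 2 was several times above replicate 1 at both times, AL at ZT8 had the same order, and AL at ZT4 did not. Sqle, Msmo1 and Idi1, later steps, differed by -0.53 ± 0.61, -0.15 ± 0.78 and 0.36 ± 0.48, each less than its SE. The list median was -0.95 at ZT4 and -0.08 at ZT8, a difference that was not tested for the list, and no member passed the test between the 2 times.

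In bile acid metabolism 2 of 22 members were lower (9.09%, under the 11.7% of all genes) and none higher, with a list median of 0.05. Nr0b2 was at 16.6 and 9.56 FPKM at ZT4 and 17.7 and 11.0 FPKM at ZT8 in TRF livers, against 39.6 and 44.2 FPKM at ZT4 and 47.5 and 52.6 FPKM at ZT8 in AL livers. No TRF library came near an AL library, with -1.71 ± 0.22 (adjusted p = 0.00591) as deposited and -1.0 ± 0.12 (adjusted p = 0.00922) corrected, a difference of -1.65 ± 0.31 at ZT4 and -1.76 ± 0.31 at ZT8. Fgfr4, the liver receptor for the ileal hormone FGF15, was at 8.20 and 4.80 FPKM at ZT4 and 6.24 and 3.58 FPKM at ZT8 in TRF livers, against 19.7 and 12.2 FPKM at ZT4 and 12.2 and 9.23 FPKM at ZT8 in AL livers. It too did not overlap, with -1.10 ± 0.25 (adjusted p = 0.0282), but the corrected difference was -0.26 ± 0.14 (adjusted p = 0.37). Klb, its co-receptor, differed by -0.03 ± 0.19, and Nr1h4, the gene of FXR, by 0.14 ± 0.25.

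Cyp7a1, which controls the first step of the classic bile acid pathway, was at 24.2 and 74.9 FPKM at ZT4 and 46.2 and 84.4 FPKM at ZT8 in TRF livers, against 18.5 and 45.1 FPKM at ZT4 and 16.3 and 51.0 FPKM at ZT8 in AL livers. Every TRF library was above the AL library of the same time and number, the groups overlapped, and 0.81 ± 0.50 did not pass (adjusted p = 0.273). With the block it did (adjusted p = 0.0102), though not with block and correction (adjusted p = 0.214), and in all 4 members were higher (18.2%) and 2 lower (9.09%) under the block. Cyp7b1, an enzyme of the alternative pathway, was at 365 and 455 FPKM at ZT4 and 228 and 357 FPKM at ZT8 in TRF livers, against 251 and 304 FPKM at ZT4 and 17.8 and 243 FPKM at ZT8 in AL livers. The low AL library was again replicate 1 of ZT8, and the difference of 1.32 ± 0.70 did not pass. Cyp8b1, which sets the cholic acid share, Abcb11, the bile salt export pump, and Slc10a1, the uptake carrier NTCP, differed by -0.30 ± 0.18, 0.34 ± 0.18 and 0.12 ± 0.18 with adjusted p of 0.254, 0.203 and 0.659.

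**Figure D3:**
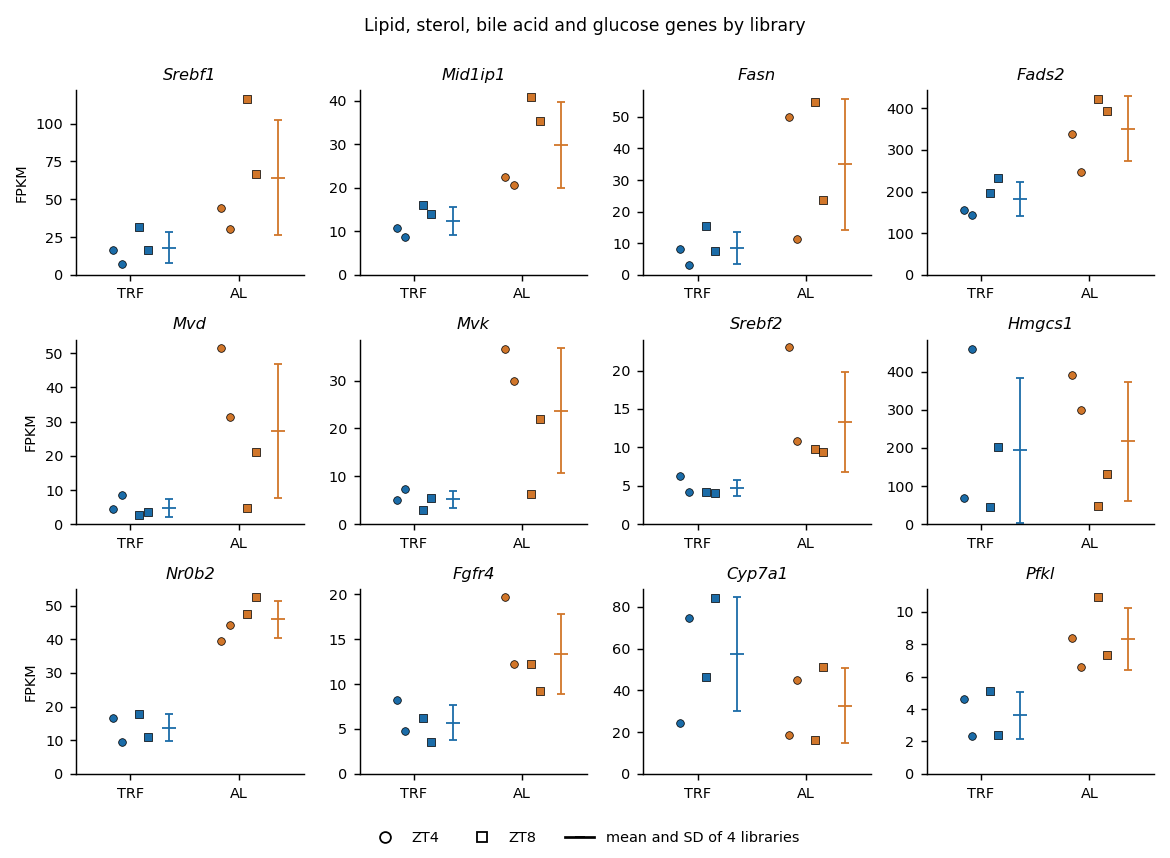
FPKM of 12 lipid, sterol, bile acid and glucose genes in each of the 4 TRF (blue) and 4 AL (orange) libraries, circles for ZT4 and squares for ZT8, with the mean and SD of each feeding beside them. Srebf1 overlaps by 1 library, Mid1ip1, Fads2, Srebf2, Nr0b2, Fgfr4 and Pfkl do not overlap, and Hmgcs1 overlaps over most of its range.

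Glucose genes gave 2 lower of 15 (13.3%, near the 11.7% of all genes), with 2 higher as well under the block (13.3%), and oxidation and gluconeogenesis gave none. No member of the 3 lists passed corrected, and with block and correction 1 gluconeogenesis gene was higher. Pfkl, the liver phosphofructokinase, was at 4.6 and 2.34 FPKM at ZT4 and 5.14 and 2.38 FPKM at ZT8 in TRF livers, against 8.36 and 6.58 FPKM at ZT4 and 10.9 and 7.31 FPKM at ZT8 in AL livers. All 4 TRF libraries were below all 4 AL libraries, with -1.04 ± 0.26 (adjusted p = 0.0364) and -0.36 ± 0.12 (adjusted p = 0.164) corrected. Among 16 gluconeogenesis and insulin genes none passed, and with the block 1 was higher (6.25%) and 4 lower (25%). Pck1 and G6pc, the gatekeepers of glucose output, differed by -0.11 ± 0.26 and 0.39 ± 0.25 with adjusted p of 0.788 and 0.281. Irs2, an insulin receptor substrate, spanned 0.202 to 1.24 FPKM in TRF and 1.23 to 4.15 FPKM in AL, with -0.90 ± 0.27 (adjusted p = 0.0612). Among 25 oxidation and ketogenesis genes none passed, with a median of -0.16 and 2 lower under the block (8%). Ppara, their main activator, differed by -0.16 ± 0.17, and Cpt1a, which admits fatty acids to mitochondria, by -0.09 ± 0.21, neither beyond its SE. Cyp4a14, a PPARA target, ran from 0.835 to 162 FPKM in TRF and 0.50 to 273 FPKM in AL, with its high value in replicate 1 of ZT8 in both feedings.

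Lipid droplet and lipoprotein genes that passed without the block were all lower. None passed corrected, and with block and correction 1 droplet gene was lower. Plin5, which ties droplets to mitochondria, was at 15.6 and 7.86 FPKM at ZT4 and 9.66 and 8.82 FPKM at ZT8 in TRF livers, against 16 and 22.4 FPKM at ZT4 and 27.1 and 24.7 FPKM at ZT8 in AL livers. The groups did not overlap, by a margin of less than 1 FPKM, with -1.06 ± 0.22 (adjusted p = 0.0232), and -0.21 ± 0.16 corrected. Fitm1, a droplet-forming protein, was the other of 13 droplet members to pass, at -1.22 ± 0.28 (adjusted p = 0.0307), and -0.19 ± 0.19 (adjusted p = 0.65) corrected. The 2 calls are 15.4% of the list, against 11.7% of all genes called lower. With the block 5 were lower (38.5%) and 1 higher (7.69%). Of 14 lipoprotein members 3 were lower (21.4%, against 11.7% of all genes). They were Apoe, Apoa4 and Apoa5, whose proteins ride on remnants and triglyceride-rich particles. With the block 4 lipoprotein members were lower (28.6%) and 1 higher (7.14%). Corrected, Apoa4 and Apoa5 differed by -0.68 ± 0.26 and -0.42 ± 0.19 (adjusted p = 0.218 and 0.286). Apoe was at 3766 and 2290.1 FPKM at ZT4 and 4629 and 2257 FPKM at ZT8 in TRF livers, against 8642 and 10690 FPKM at ZT4 and 13982 and 10551 FPKM at ZT8 in AL livers, without overlap. Its difference was -1.81 ± 0.32 (adjusted p = 0.0163) as deposited and -0.89 ± 0.20 (adjusted p = 0.0666) corrected. Apob, the structural protein of VLDL, was at 208 and 193 FPKM at ZT4 and 208 and 217 FPKM at ZT8 in TRF livers, against 448 and 126 FPKM at ZT4 and 250.4 and 141 FPKM at ZT8 in AL livers. The TRF libraries fell inside the AL range, with -0.04 ± 0.39 (adjusted p = 0.955).

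Of 14 hepatokine genes 2 were lower (14.3%, near the 11.7% of all genes), and under the block 2 were higher (14.3%, against 16.3% of all genes) and 4 lower (28.6%, against 22.8%). Gdf15, a stress hormone that curbs appetite, was at 0.509 and 0.159 FPKM at ZT4 and 0.452 and 0.0367 FPKM at ZT8 in TRF livers, against 5.30 and 3.65 FPKM at ZT4 and 4.96 and 2.46 FPKM at ZT8 in AL livers. Every TRF library was under 1 FPKM and every AL library above 2 FPKM, with -1.96 ± 0.22 (adjusted p = 0.00422), and -0.82 ± 0.17 corrected (adjusted p = 0.0581, and 0.0365 with the block). Igfals, which holds IGF1 in the circulation, differed by -1.40 ± 0.38 (adjusted p = 0.0453) and did not pass corrected. Fgf21, the fasting and protein-restriction hormone, spanned 0.584 to 8.15 FPKM in TRF and 2.19 to 19.6 FPKM in AL, with -1.34 ± 0.44 (adjusted p = 0.0748). Igf1 differed by 0.52 ± 0.17 (adjusted p = 0.0765), and with the block it passed as deposited (adjusted p = 0.022) but not corrected (adjusted p = 0.918).

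The immediate early list holds genes that are for the most part transcribed within minutes of a stimulus, and also Jund, which need not be. Of its 13 members tested 5 were lower in TRF (38.5%, against 11.7% of all genes) and none higher. On corrected values 3 passed, and the block gave 7 lower (53.8%, against 22.8% of all genes) and 2 higher (15.4%, against 16.3%). Junb, a subunit of the AP-1 transcription factor, was at 0.630 and 0.160 FPKM at ZT4 and 0.555 and 0.185 FPKM at ZT8 in TRF livers, against 4.99 and 6.07 FPKM at ZT4 and 9.46 and 13.0 FPKM at ZT8 in AL livers. All TRF libraries were under 1 FPKM and all AL libraries near 5 FPKM or more, with -2.70 ± 0.18 (adjusted p = 0.000536) as deposited and -1.40 ± 0.15 (adjusted p = 0.00647) corrected. Jund, another AP-1 subunit, was at 2.57 and 2.63 FPKM at ZT4 and 2.71 and 1.84 FPKM at ZT8 in TRF livers, against 32.0 and 22.8 FPKM at ZT4 and 24.6 and 16.2 FPKM at ZT8 in AL livers. The groups lay far apart, with -2.83 ± 0.19 (adjusted p = 0.000536), of which -0.90 ± 0.17 (adjusted p = 0.045) was left after correction. Ier2 was at 4.0 and 2.08 FPKM at ZT4 and 3.05 and 1.78 FPKM at ZT8 in TRF livers, against 11.7 and 10.9 FPKM at ZT4 and 10.9 and 10.6 FPKM at ZT8 in AL livers. It too was separate, with -1.73 ± 0.20 (adjusted p = 0.0045) and -0.64 ± 0.10 (adjusted p = 0.0217) corrected. Jun and Myc differed by -1.39 ± 0.35 and -0.50 ± 0.13 (adjusted p = 0.0376 and 0.041) and did not pass corrected. Egr1, Atf3 and Btg2 differed by -0.49 ± 0.18, -0.10 ± 0.25 and -0.10 ± 0.22 without passing, and Klf10 by 0.70 ± 0.22 (adjusted p = 0.0662). Fos, Fosb, Gadd45b, Ier3 and Klf4 were under the minimum of 1 FPKM and were not tested.

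Cebpd, a transcription factor gene of the acute phase and of early adipogenesis, was also low in every TRF library. It was at 0.982 and 1.06 FPKM at ZT4 and 1.42 and 1.15 FPKM at ZT8 in TRF livers, against 6.70 and 10.6 FPKM at ZT4 and 6.17 and 7.78 FPKM at ZT8 in AL livers. No library of either feeding came near the other, with -2.01 ± 0.17 (adjusted p = 0.00152) as deposited and -1.87 ± 0.15 (adjusted p = 0.00193) corrected. Of 21 acute phase genes, only Hp, the haptoglobin gene, passed (4.76%, under the 11.7% of all genes called lower). Its difference was -1.03 ± 0.26 (adjusted p = 0.0374), and -0.48 ± 0.23 corrected. Saa1, a serum amyloid gene with near-identical copies, was at 2383 and 9263 FPKM at ZT4 and 2227 and 2472 FPKM at ZT8 in TRF livers, against 6513 and 8805 FPKM at ZT4 and 281 and 2427 FPKM at ZT8 in AL livers. The number 2 libraries of the feedings were close at both times, the number 1 libraries were not, and the difference of 0.41 ± 0.69 did not pass (adjusted p = 0.696).

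**Figure D4:**
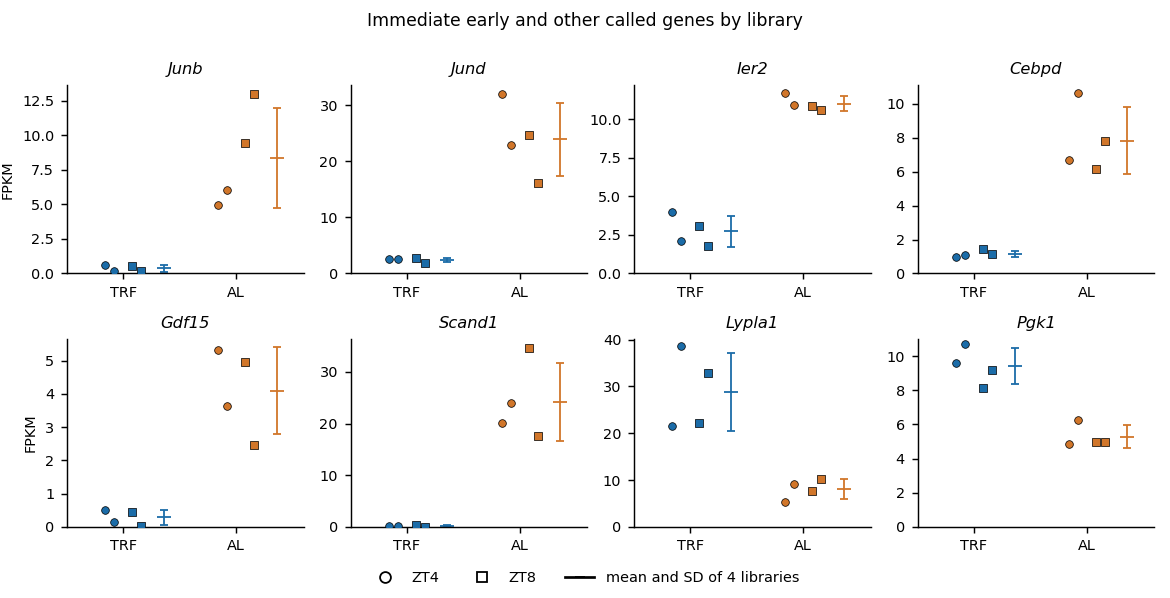
FPKM of 8 genes that passed, in each of the 4 TRF (blue) and 4 AL (orange) libraries, circles for ZT4 and squares for ZT8, with the mean and SD of each feeding. Junb, Jund, Ier2, Cebpd, Gdf15 and Scand1 are low in all TRF libraries, Lypla1 and Pgk1 are high in all TRF libraries, and no gene overlaps between feedings.

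The amino acid, stress and xenobiotic lists had few calls, and no member passed on corrected values without the block. Of 23 amino acid genes 3 were lower (13%, near the 11.7% of all genes), namely Bckdha, a subunit of the branched-chain ketoacid dehydrogenase, Sds, the serine dehydratase, and Nags, which makes the activator of the urea cycle, at -1.73 ± 0.37, -1.35 ± 0.30 and -1.32 ± 0.25 (adjusted p = 0.0238, 0.0267 and 0.0171). With the block 4 were higher (17.4%, near the 16.3% of all genes), among them Otc of the urea cycle at 0.75 ± 0.25, and 6 lower (26.1%, near the 22.8% of all genes). Of 16 autophagy genes 1 was higher (against 3.34% of all genes), Lamp2, a lysosomal membrane protein, at 0.75 ± 0.20 (adjusted p = 0.0441). Lower were 2 (12.5%, near the 11.7% of all genes), Map1lc3a and Tfeb, at -1.01 ± 0.19 and -0.94 ± 0.12 (adjusted p = 0.0176 and 0.00591). Under the block 2 were higher (12.5%) and 5 lower (31.2%). The sign of the last pair turned on corrected values, to 0.36 ± 0.12 and 0.48 ± 0.15, and with block and correction together Tfeb passed as higher (adjusted p = 0.0455). Of 11 ATF4 genes 2 were lower (18.2%, against 11.7% of all genes), and 7 with the block (63.6%). The 2 were Eif4ebp1 at -1.32 ± 0.29 (adjusted p = 0.0259) and Ddit3 at -0.98 ± 0.26 (adjusted p = 0.0458, with no corrected value). With block and correction Eif4ebp1 passed as lower (adjusted p = 0.0257).

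Of 15 Nrf2 genes Osgin1 and Keap1 were lower (13.3%, near the 11.7% of all genes), at -1.83 ± 0.45 and -0.96 ± 0.18 (adjusted p = 0.0352 and 0.0171). With block and correction Osgin1 passed (adjusted p = 0.0251). Nqo1 and Gclc, the usual reporters of Nrf2, differed by 0.11 ± 0.32 and 0.20 ± 0.24. Hspb1 at -1.40 ± 0.27 (adjusted p = 0.0176) was the only member of the 14 heat shock genes to pass (7.14%, under the 11.7% of all genes). Under the block 2 heat shock genes were higher and 2 lower (14.3% each). Por, the reductase of the cytochromes P450, at -1.29 ± 0.26 (adjusted p = 0.0201) was the only member of the 19 xenobiotic genes to pass (5.26%, under the 11.7% of all genes). Under the block 3 xenobiotic genes were higher (15.8%) and 1 lower (5.26%). None of 19 ER stress genes, 13 glucocorticoid targets or 9 growth hormone signalling genes passed. In turn, the block gave 1 higher (5.26%), 1 higher and 1 lower (7.69% each), and 1 higher (11.1%) and 2 lower (22.2%) of these lists. With block and correction 0 ER stress genes passed, 1 glucocorticoid target was lower and 1 growth hormone signalling gene higher. Hspa5, the ER chaperone BiP, differed by 0.02 ± 0.38 (adjusted p = 0.97), Tsc22d3, a glucocorticoid target, by 0.57 ± 0.47 (adjusted p = 0.408), and Ghr, the growth hormone receptor, by 0.65 ± 0.24 (adjusted p = 0.101). Of 12 NAD genes 1 was called higher (against 3.34% of all genes), Sirt1, the NAD-dependent deacetylase. Sirt1 was higher in every TRF library, with 2.27 ± 0.0753 FPKM in TRF and 1.36 ± 0.0710 FPKM in AL (SD, n = 4 each) and a difference of 0.47 ± 0.11 (adjusted p = 0.0286). Naprt and Qprt, which feed NAD synthesis from nicotinic and quinolinic acid, were lower (16.7% of the list, against 11.7% of all genes). Their differences were -1.34 ± 0.24 and -0.76 ± 0.17 (adjusted p = 0.0163 and 0.0267). Nampt, the salvage enzyme under clock control, differed by 0.48 ± 0.22 (adjusted p = 0.155). Under the block 3 NAD genes were higher and 3 lower (25% each, against 16.3% and 22.8% of all genes).

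Several core clock genes stood at very different levels at ZT4 and ZT8, and in the same direction in both feedings. Between feedings, of 21 tested, 1 was higher in TRF and 1 lower (4.76% each, against 3.34% and 11.7% of all genes). The list median was -0.07, and none passed after correction. Bhlhe41 and Csnk1e were under the minimum. Arntl, the gene of BMAL1, was at 11.5 and 7.83 FPKM at ZT4 and 0.416 and 0.585 FPKM at ZT8 in TRF livers, against 11.7 and 7.15 FPKM at ZT4 and 0.552 and 0.700 FPKM at ZT8 in AL livers. It was high at ZT4 and near 0.5 FPKM at ZT8 in both feedings, and the feeding difference was -0.03 ± 0.19 (adjusted p = 0.91). Nfil3, a repressor of D-box genes, was also lower at ZT8, at 30.4 and 26 FPKM at ZT4 and 5.50 and 5.43 FPKM at ZT8 in TRF livers, against 24.3 and 35.7 FPKM at ZT4 and 5.86 and 7.58 FPKM at ZT8 in AL livers. Dbp, a D-box activator and direct clock target, was at 0.172 and 0.75 FPKM at ZT4 and 28.7 and 17.2 FPKM at ZT8 in TRF livers, against 0.542 and 1.08 FPKM at ZT4 and 56.1 and 43.9 FPKM at ZT8 in AL livers. Both feedings were near or under 1 FPKM at ZT4 and far above it at ZT8, where both TRF libraries were below both AL libraries, and the mean difference of -0.72 ± 0.23 did not pass (adjusted p = 0.067, and 0.0466 with the block). Tef, another D-box activator, and Ciart, a repressor of CLOCK and BMAL1, differed by -0.07 ± 0.18 and -0.04 ± 0.30 and were likewise near the floor or low at ZT4 and higher at ZT8.

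Promoters are printed for Per1, a clock gene that passed, and for Ciart and Tef, which did not pass and whose windows hold the same E-box CACGTG. The windows run from 250 bases before to 50 after the start, from RefSeq on GRCm38.p6, 5′ to 3′ on the strand of the gene, with the E-box in capitals. CACGTG reads the same on both strands and was found in 7.15% of 32851 such windows. Of 23 clock genes, 18 had a window and 5 of these held it (Bhlhe41, Ciart, Cry1, Per1 and Tef). Counted by window, as the 7.15% is, 6 of 26 clock windows held it. Per1 lies at chr11:69098699-69098998 (+), Ciart at chr3:95882179-95882478 (-) and the upstream of the pair of Tef windows at chr15:81802423-81802722 (+).
Per1: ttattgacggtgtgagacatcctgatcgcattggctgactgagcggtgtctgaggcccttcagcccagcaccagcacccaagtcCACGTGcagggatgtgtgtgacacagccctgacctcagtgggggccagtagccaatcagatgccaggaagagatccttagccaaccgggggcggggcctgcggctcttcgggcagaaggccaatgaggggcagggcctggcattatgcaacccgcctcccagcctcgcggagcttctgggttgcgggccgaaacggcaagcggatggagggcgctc
Ciart: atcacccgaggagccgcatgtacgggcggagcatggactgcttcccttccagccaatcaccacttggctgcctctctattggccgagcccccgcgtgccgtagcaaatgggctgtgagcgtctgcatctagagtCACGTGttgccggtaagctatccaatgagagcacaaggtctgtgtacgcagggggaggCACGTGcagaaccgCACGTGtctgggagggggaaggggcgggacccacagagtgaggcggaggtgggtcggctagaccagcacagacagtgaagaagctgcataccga
Tef: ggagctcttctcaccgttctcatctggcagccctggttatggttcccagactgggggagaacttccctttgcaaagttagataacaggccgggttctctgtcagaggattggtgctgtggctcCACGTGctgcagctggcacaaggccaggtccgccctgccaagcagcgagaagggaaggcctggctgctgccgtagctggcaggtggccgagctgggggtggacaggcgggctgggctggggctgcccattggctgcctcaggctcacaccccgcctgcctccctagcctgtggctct

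The 3 E-box promoters stood beside feeding differences of unlike size. Per1, a light- and cAMP-responsive repressor of the clock, was at 1.72 and 1.06 FPKM at ZT4 and 2.52 and 2.36 FPKM at ZT8 in TRF livers, against 2.01 and 2.47 FPKM at ZT4 and 4.6 and 6.53 FPKM at ZT8 in AL livers. At ZT8 both TRF libraries were below both AL libraries, at ZT4 likewise by a small margin, and the mean difference was -0.68 ± 0.16 (adjusted p = 0.0299). Corrected it was 0.25 ± 0.21 (adjusted p = 0.567), with the sign turned. Ciart was at 3.99 and 7.87 FPKM at ZT8 in TRF livers and 3.29 and 9.85 FPKM in AL livers, the number 2 library being the higher in both. Tef was at 22.7 and 22.6 FPKM at ZT8 in TRF livers and 26.5 and 23 FPKM in AL livers, ranges that nearly touch.

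Among the other clock repressors and the nuclear receptors the differences had both signs. Per2 and Per3 differed by -0.36 ± 0.14 and -0.14 ± 0.11, and Cry1 and Cry2 by -0.01 ± 0.16 and -0.35 ± 0.14, with adjusted p of 0.111, 0.348, 0.983 and 0.123. Nr1d1, the gene of REV-ERB alpha, was at 4.43 and 7.53 FPKM at ZT4 and 20.4 and 12.1 FPKM at ZT8 in TRF livers, against 5.01 and 16.7 FPKM at ZT4 and 28.1 and 33.3 FPKM at ZT8 in AL livers, lower in TRF within each time and number, with -0.76 ± 0.35 (adjusted p = 0.164). Nr1d2, the gene of REV-ERB beta, was at 5.42 and 15.6 FPKM at ZT4 and 23.5 and 34.5 FPKM at ZT8 in TRF livers, against 3.10 and 7.99 FPKM at ZT4 and 10.9 and 19.3 FPKM at ZT8 in AL livers. It was higher in TRF within each time and number, with 0.84 ± 0.38 (adjusted p = 0.153, and 0.00929 with the block). Rora, the activating counterpart, and Clock differed by 0.47 ± 0.14 and 0.51 ± 0.15 (adjusted p = 0.0632 and 0.0533). None of these 8 passed. Without both number 1 libraries of ZT8, 0 clock genes were higher and 1 lower, and the adjusted p was 0.105 for Lamp2, 0.12 for Sirt1 and 0.114 for Timd4, so that none of these passed there. With the block 4 clock genes were higher (19%, near the 16.3% of all genes), among them Nr1d2, Rora and Clock. Lower with the block were 4 (19%, near the 22.8% of all genes), Per1, Per2, Cry2 and Dbp, and with block and correction none passed. Bhlhe40, Csnk1d, Hlf, Npas2 and Usp2 had adjusted p of at least 0.222.

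**Figure D5:**
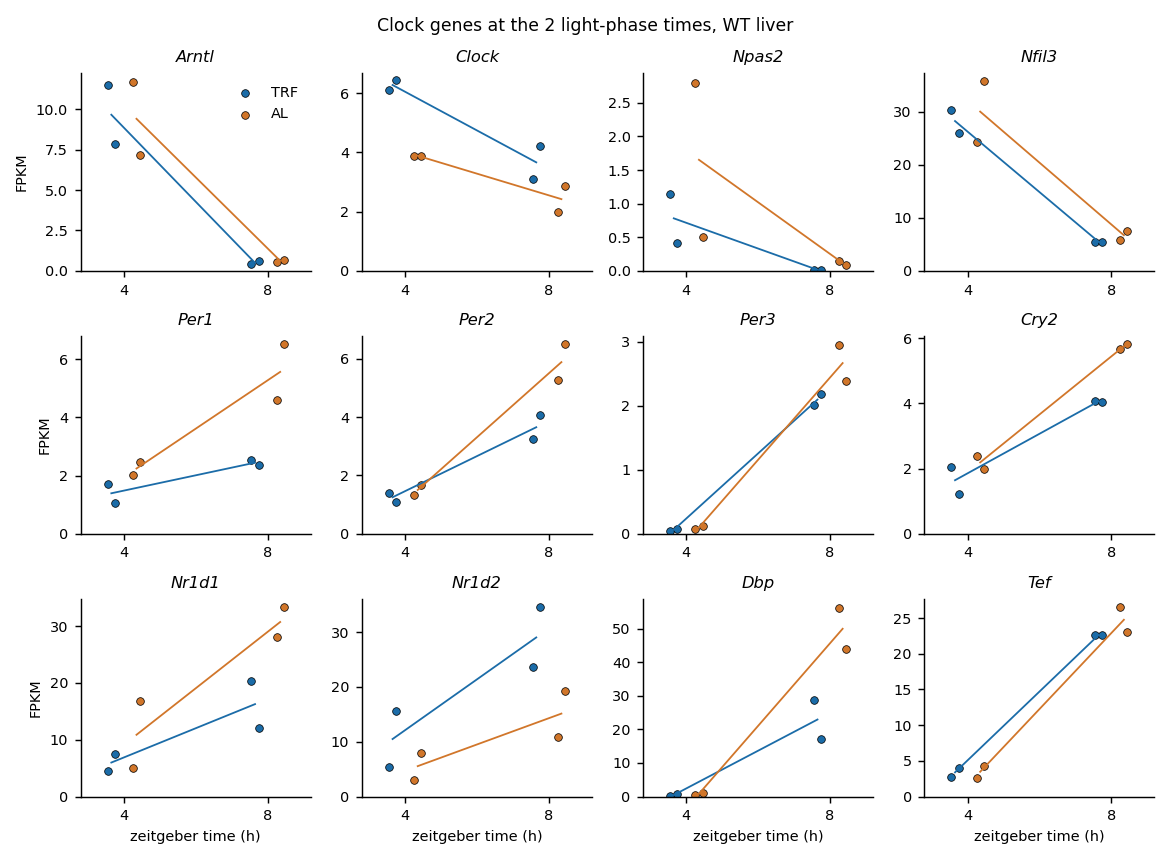
FPKM of 12 clock genes at ZT4 and ZT8 in TRF (blue, left of each time) and AL (orange, right of it) livers, each point 1 library and each line joining the means of 2 libraries. Arntl, Npas2 and Nfil3 are high at ZT4, Dbp, Per3 and Tef are high at ZT8, and the feedings follow the same course.

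Sex-biased liver genes, which depend on the pattern of growth hormone pulses, were set apart by the number 1 libraries of ZT8. The male-biased list of 20 had a median of 1.04, with 0.34 at ZT4 and 1.62 at ZT8, and without both number 1 libraries of ZT8 the median was 0.28 and none passed. Ugt2b1, a glucuronosyltransferase with close paralogs, was the only member of the 20 to pass, as higher, against 3.34% of all genes. It was at 296 and 355 FPKM at ZT4 and 226 and 332 FPKM at ZT8 in TRF livers, against 121 and 184 FPKM at ZT4 and 95.5 and 195 FPKM at ZT8 in AL livers. Its difference was 1.06 ± 0.28 (adjusted p = 0.0441), and 0.58 ± 0.18 (adjusted p = 0.152) corrected. Hsd3b5, a male-specific steroid dehydrogenase, was at 354 and 358 FPKM at ZT4 and 199 and 208 FPKM at ZT8 in TRF livers, against 219 and 327 FPKM at ZT4 and 1.13 and 173 FPKM at ZT8 in AL livers. Replicate 1 of AL at ZT8 was far below the other 7, and 1.91 ± 1.16 did not pass (adjusted p = 0.263). Serpina1e, Mup7 and Selenbp2 had the same library lowest, at 68.1, 4.79 and 3.34 FPKM. Of 6 female-biased genes none passed, and Cyp2a4, Cyp2b13 and Abcd2 were, like Cyp2b9, highest in the number 1 library of ZT8 in both feedings, at 5.30, 5.0 and 5.23 FPKM in TRF and 11.9, 8.19 and 8.37 FPKM in AL.

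Markers of hepatocytes, the main cells of the labelled tissue, were abundant in every library. The 11 hepatocyte markers summed to 43438 to 57058 FPKM in TRF and 42830 to 65070 FPKM in AL, with none at 0 in all libraries, none called and 1 lower under the block (9.09%). Cebpa, one of them, passed only after correction, at 0.79 ± 0.14 (adjusted p = 0.0299) against -0.52 ± 0.19 as deposited. The 12 stellate markers summed to 174 to 217 FPKM in TRF and 132 to 145 FPKM in AL, without overlap, while the median difference of the 9 stellate markers tested was -0.08. Lum and Lrat were higher, 2 of the 9 against 3.34% of all genes, at 0.83 ± 0.15 and 0.50 ± 0.13 (adjusted p = 0.0167 and 0.0427). Most of the sum was Dcn, at 130 to 161 FPKM in TRF and 93.7 to 106 FPKM in AL. Neither Lum nor Lrat passed corrected or without the number 1 libraries of ZT8, while the block gave 4 higher (44.4%) and 1 lower (11.1%), and Col1a1, Lox and Timp1 were under the minimum. Of 15 Kupffer and immune markers tested, 1 was higher and 1 lower (6.67% each, against 3.34% and 11.7% of all genes). Timd4, a resident Kupffer cell receptor, was higher at 0.56 ± 0.14 (adjusted p = 0.039) and C1qa, a complement gene of the same cells, lower at -1.18 ± 0.31 (adjusted p = 0.0426). Corrected, Timd4 and C1qa differed by 0.26 ± 0.17 and -0.28 ± 0.19 (adjusted p = 0.455 and 0.493), while the 18 Kupffer and immune markers summed to 363 to 691 FPKM in TRF and 475 to 749.7 FPKM in AL, with 3 higher (20%) and 2 lower (13.3%) under the block.

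Of the remaining cell types no marker was called, though 5 endothelial markers were lower under the block (41.7%, against 22.8% of all genes). The 12 endothelial markers summed to 77.0 to 114 FPKM in TRF and 97.6 to 122 FPKM in AL, the 6 bile duct markers to 60.5 to 81.3 FPKM in TRF and 39.9 to 66.7 FPKM in AL, and the 6 adipocyte markers to 3.13 to 7.03 FPKM in TRF and 2.85 to 21.5 FPKM in AL. Of the 10 pancreas markers 3 were at 0 in all 8 libraries, and nearly all of their sum was Cela1, at 34.9 to 69.2 FPKM in TRF and 24.0 to 84.0 FPKM in AL. The 6 erythroid markers summed to 131 to 598 FPKM in TRF and 148 to 2235 FPKM in AL, highest in the number 1 libraries of ZT8 in both feedings, and without those libraries 2 of 5 tested members were lower in TRF. The part of blood or of other cells in the gene differences was not tested. Of 7 cell cycle genes 1 was lower (14.3%, near the 11.7% of all genes). Mcm5 at -0.39 ± 0.10 (adjusted p = 0.0434) was the only one of 7 cell cycle genes to pass, and it passed neither corrected nor without the number 1 libraries of ZT8, while the block gave 2 lower (28.6%).

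Across all genes, the greatest rises that passed both as deposited and corrected, without overlap, were between 0.73 and 1.71. Lypla1, a depalmitoylating thioesterase, was at 21.6 and 38.6 FPKM at ZT4 and 22.1 and 32.9 FPKM at ZT8 in TRF livers, against 5.25 and 9.15 FPKM at ZT4 and 7.55 and 10.2 FPKM at ZT8 in AL livers. The lowest TRF library was above the highest AL library, with 1.71 ± 0.26 (adjusted p = 0.0103) as deposited and 1.27 ± 0.18 (adjusted p = 0.0167) corrected. Pgk1, the glycolytic phosphoglycerate kinase, was at 9.62 and 10.7 FPKM at ZT4 and 8.16 and 9.17 FPKM at ZT8 in TRF livers, against 4.87 and 6.28 FPKM at ZT4 and 4.97 and 4.96 FPKM at ZT8 in AL livers. It had nearly the same difference before and after correction, 0.73 ± 0.14 and 0.74 ± 0.09 (adjusted p = 0.017 and 0.0107), as did Ccni, a cyclin-like gene, at 0.73 ± 0.16 and 0.65 ± 0.12. Sh3bgrl, Mzt1, a gamma-tubulin ring component, and Tmx1, an ER thioredoxin, rose by 1.45 ± 0.30, 1.18 ± 0.25 and 1.04 ± 0.20. Ptges3, an Hsp90 cochaperone, Ppp3r1, the calcineurin regulatory subunit, Gabarapl2, an autophagosome protein, and Sgpp1, a sphingosine-1-phosphate phosphatase, rose by 0.96 ± 0.17, 0.95 ± 0.17, 0.83 ± 0.18 and 0.75 ± 0.14. As deposited, the adjusted p of these genes other than Lypla1 ran from 0.0155 to 0.0256.

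The 10 greatest falls by the same rule were larger than the rises. Scand1, a SCAN domain gene at chr2:156311847-156312704 of GRCm38, was at 0.0954 and 0.194 FPKM at ZT4 and 0.367 and 0 FPKM at ZT8 in TRF livers, against 20.2 and 24.1 FPKM at ZT4 and 34.7 and 17.7 FPKM at ZT8 in AL livers. It was nearly silent in every TRF library, 1 of them at 0, with -4.40 ± 0.23 (adjusted p = 0.000367) and -2.31 ± 0.17 (adjusted p = 0.00193) corrected. Rplp1, a protein of the ribosomal stalk that has many pseudogenes and is therefore uncertain, was at 70.1 and 34.8 FPKM at ZT4 and 53.9 and 20.9 FPKM at ZT8 in TRF livers, against 467 and 569 FPKM at ZT4 and 375 and 477 FPKM at ZT8 in AL livers. Ccdc85b was at 0.238 and 0 FPKM at ZT4 and 0.458 and 0 FPKM at ZT8 in TRF livers, against 10.5 and 6.16 FPKM at ZT4 and 16.3 and 10.8 FPKM at ZT8 in AL livers, with -3.30 ± 0.22 (adjusted p = 0.000536) and -2.87 ± 0.15 (adjusted p = 0.000449) corrected. It was at 0 in both number 2 libraries of TRF. Tpgs1, a tubulin polyglutamylase subunit, Dpm3, a stabiliser of the dolichol-phosphate mannose synthase, Cldn3, a tight junction protein, and Rnaseh2c, a subunit of ribonuclease H2, fell by 3.23 ± 0.21, 3.19 ± 0.28, 2.90 ± 0.38 and 2.87 ± 0.25. Ccdc124, a ribosome-bound protein, and Bola1, a mitochondrial iron-sulfur protein, fell by 2.74 ± 0.34 and 2.55 ± 0.17, and Jund, above, completes the 10. Corrected, the differences of Tpgs1, Cldn3 and Bola1 were -1.57 ± 0.13, -1.58 ± 0.26 and -1.97 ± 0.15.

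Light-phase TRF and AL libraries of the mutants of the series, with 1 library per feeding and time, are given as values only. In the liver knockout of Bmal1 at ZT4 and ZT8, Srebf1 spanned 14.4 to 17.1 FPKM in TRF and 43.9 to 46.2 FPKM in AL. There Scand1 spanned 17.9 to 18.2 FPKM in TRF and 13.6 to 15.5 FPKM in AL, Junb 3.35 to 4.11 FPKM in TRF and 5.72 to 6.39 FPKM in AL, Jund 10.9 to 12.9 FPKM in TRF and 13.6 to 13.7 FPKM in AL, and Cebpd 6.57 to 6.6 FPKM in TRF and 2.21 to 5.0 FPKM in AL. In the Cry1 and Cry2 double knockout at ZT3, ZT6 and ZT9, Srebf1 spanned 16.6 to 48.1 FPKM in TRF and 33.4 to 61.0 FPKM in AL, Scand1 9.97 to 13.7 FPKM in TRF and 7.09 to 10.6 FPKM in AL, and Junb 8.41 to 40.5 FPKM in TRF and 6.04 to 6.71 FPKM in AL. There Jund spanned 11.9 to 24.9 FPKM in TRF and 8.57 to 11.4 FPKM in AL, and Cebpd 2.97 to 8.71 FPKM in TRF and 2.24 to 2.72 FPKM in AL. In the liver double knockout of Rev-erb alpha and beta at the same times, TRF was below AL without overlap for Srebf1, at 33.8 to 48.3 FPKM in TRF and 63.3 to 77.9 FPKM in AL, and for Scand1, at 7.31 to 7.44 FPKM in TRF and 11.2 to 16.5 FPKM in AL. The same held there for Jund, at 6.89 to 11.1 FPKM in TRF and 16.5 to 18.5 FPKM in AL, and for Cebpd, at 1.35 to 1.93 FPKM in TRF and 4.44 to 5.46 FPKM in AL, while Junb overlapped, at 6.67 to 12.0 FPKM in TRF and 6.06 to 9.03 FPKM in AL. Lypla1 spanned 25.7 to 32.9 FPKM in TRF and 26.5 to 42 FPKM in AL of the Bmal1 knockout. It spanned 18.7 to 26.1 and 28.3 to 38.4 FPKM in the Cry knockout. In the Rev-erb knockout it spanned 24.7 to 27.7 and 23.2 to 27.7 FPKM, and all were above the WT AL livers. Rplp1 in TRF spanned 387 to 464, 294 to 361 and 210 to 232 FPKM in the same order, above the WT TRF livers. Only in the Rev-erb knockout was it below AL without overlap. Pgk1 in the Bmal1 knockout spanned 4.96 to 5.53 FPKM in TRF and 3.78 to 4.57 FPKM in AL. In the Cry knockout its ranges were 6.26 to 6.48 and 5.42 to 7.21 FPKM. Pgk1 was lower in TRF without overlap in the Rev-erb knockout, at 4.14 to 4.74 FPKM against 5.55 to 7.38 FPKM. In the Bmal1 knockout Mid1ip1 was at 7.06 to 9.49 FPKM in TRF and 23.1 to 35 FPKM in AL. Nr0b2 was there at 8.87 to 13.7 and 18.9 to 22.6 FPKM. Both overlapped in the Cry knockout, at 15 to 38.9 and 19.2 to 32 FPKM for Mid1ip1. For Nr0b2 the Cry ranges were 10.2 to 32.4 and 18 to 38.4 FPKM. Of the Rev-erb ranges, Mid1ip1 overlapped, at 15.1 to 27.5 and 26.3 to 28.3 FPKM. Nr0b2 did not, at 17.2 to 25.1 FPKM in TRF and 28.3 to 32.5 FPKM in AL. None of these mutant TRF values of Scand1 or Junb was as low as in the WT TRF livers, and the difference between genotypes was not tested.

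Singly, ZT4 and ZT8 gave fewer calls than their mean. At ZT4 103 genes passed (1.03%), 17 higher (0.171%) and 86 lower (0.864%), and at ZT8 72 passed (0.723%), 9 higher (0.0904%) and 63 lower (0.633%). Corrected, 37 passed at ZT4 (0.387%), 11 higher (0.115%) and 26 lower (0.272%), and 32 at ZT8 (0.335%), 7 higher (0.0732%) and 25 lower (0.261%). With the block 1602 passed at ZT4 and 1380 at ZT8. The test of the difference between the times called none of 9955 genes, with 32 at an unadjusted p under 0.05 and 82 at that level with the block. Predicted, clone-named, pseudogene and mitochondrial genes were not ranked. Among the rest, most of the 8 smallest p-values were in noncoding RNAs. The 5.8S ribosomal RNA gene n-R5-8s1 was at 83.7 and 98.5 FPKM at ZT4 and 22.6 and 7.34 FPKM at ZT8 in TRF livers, against 4.32 and 5.63 FPKM at ZT4 and 4.43 and 9.34 FPKM at ZT8 in AL livers. Its TRF libraries stood far above AL at ZT4 and overlapped AL at ZT8, with 3.95 ± 0.49 at ZT4 and 0.91 ± 0.49 at ZT8 (difference between times, unadjusted p = 0.00255). Rn18s-rs5, Rn7sk, Snord72 and Yam1 also had the larger difference at ZT4, with differences at ZT4 of 2.43 ± 0.17, 2.01 ± 0.43, 2.05 ± 0.36 and 2.52 ± 0.38 and at ZT8 of 1.26 ± 0.17, -0.08 ± 0.43, -0.02 ± 0.36 and 0.46 ± 0.38. Ribosomal, 7SK and small nucleolar RNAs mostly lack a poly(A) tail, and the libraries were made from poly(A) RNA. The source of their reads was not tested. Cd83, an immune cell marker, Ifitm6 and Ppp1r14a completed the 8, with differences between times of -0.88 ± 0.23, -0.89 ± 0.27 and 1.10 ± 0.40.

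Against the dark phase of the same genotype, at ZT16 and ZT20, no gene had a feeding effect that passed as different, with 453 at an unadjusted p under 0.05. With the block the adjusted count was again 0, with 951 at an unadjusted p under 0.05. Replicate 2 of AL at ZT16 was the shallowest of the 16 libraries, at 5.38 M reads. The next shallowest, replicate 2 of TRF at ZT16, had 9.69 M reads. In the dark 3384 genes passed (34.0%), 1195 higher (12.0%) and 2189 lower (22.0%), and 1460 of 9564 on corrected values (15.3%), 674 higher (7.05%) and 786 lower (8.22%). The dark effects came from the fit of 16 libraries, and the light effects from the fit of 8 libraries, which had fewer residual degrees of freedom. Counts and SE of light and dark therefore cannot be set side by side as a measure of breadth. The bin medians by GC content were of the same kind, 0.53 under 40% GC and -1.20 at 60% and above. Cebpd was at -2.01 ± 0.17 in the light and -3.06 ± 0.24 in the dark (difference 1.05 ± 0.34, unadjusted p = 0.00895). Apob, which did not pass in the light, was higher in TRF in the dark by 1.6 ± 0.34 (adjusted p = 0.00482, difference -1.64 ± 0.48, unadjusted p = 0.00507), and so were Hsp90b1, the ER chaperone GRP94, by 1.34 ± 0.27 (adjusted p = 0.00366), Abca1, the cholesterol exporter, by 1.24 ± 0.23 (adjusted p = 0.00264), Uggt1, a glycoprotein folding sensor, by 0.88 ± 0.18 (adjusted p = 0.00441), and Sec24a, a COPII coat protein, by 1.23 ± 0.18 (adjusted p = 0.000986). B9d2, Rdm1, Rpp21, Fbxl15, Tmed1 and Dtx3l were the other genes with the smallest p, and none of these differences between light and dark passed the adjustment.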

How the data were processed

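The deposited values are FPKM per gene and library, made by the authors from liver poly(A) RNA, with replicates not pooled. Per the submitters' processing notes, the tools were STAR, featureCounts and DESeq2 and the build was GRCm38. Whether counting used strand is not given in the sources used here. Reads from overlapping genes on opposite strands may therefore be mixed, and none of the named genes was among the 85 opposite-strand genes. The table holds 45808 gene rows, of which 4 with a repeated symbol were left out, and 41893 symbols matched a single GENCODE M21 gene, from which GC content and length were taken. Relative depth was recovered from FPKM steps, with 84.9 to 86.3% of low values whole within a tolerance of 0.1, and voom was run on the recovered reads as an added alternative.

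Values were log2(FPKM + 1) for genes that averaged 1 FPKM or more across 67 libraries. The fit (limma 3.58.1 in R 4.3.3, eBayes with a trend) had 1 mean per feeding and time, 8 libraries and 4 residual degrees of freedom. For the dark effects and for light against dark it had 16 libraries and 8 residual degrees of freedom. Adjusted p-values are Benjamini-Hochberg over all genes tested. In the correction each library's deviations were fitted by splines of GC content (5 degrees of freedom) and log2 length (4). Same-numbered libraries of different groups deviated together (6 correlations, 0.15 to 0.63 as deposited and 0.09 to 0.64 corrected), and the pairing comes from the data, not from the labels. On simulated data 52.0% of genes changed by 1 log2 unit and 93.0% of those changed by 2 were recovered in the feeding comparison over 9955 genes, with 7.05% of calls false. The simulated noise was independent between genes and libraries, with no GC slope and no shared deviation of same-numbered libraries. The share of false calls in the real libraries can therefore not be read from it.

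The libraries and gene lists were chosen with earlier results of these data known. Named genes are the core clock list, the 10 greatest rises and falls with a mean of at least 5 FPKM that passed as deposited and corrected without overlap, up to 5 called members per list, the 8 smallest p for ZT8 against ZT4 and the 6 smallest in each direction for light against dark. Predicted, clone-named, pseudogene and mitochondrial genes were not named, apart from mt-Nd6 and its partner. Members that did not pass, and Mup17, Moxd1, Cyp2b9 and Hba-a1, were named after their values were seen. Some genes that the rule names are counted in their lists and not reported here. Figures were drawn with matplotlib 3.10.9.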

Additional observations from a re-analysis of the deposited data

Results flagged for a closer look

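Of 318 sets of 4 libraries examined, 26 had their highest or lowest library further from the rest, as a share of the whole range, than Dixon's critical ratio for 4 values, where chance gives about 1 in 20. More of them were replicate 1 of AL at ZT8 than any other library (13 of the 26). The genes examined were chosen for the text with their values known, so this count cannot be read against the share that chance gives. It was lowest for the male-biased genes Mup17 (ratio 0.920), Mup7 (0.933), Moxd1 (0.917), Selenbp2 (0.963), Serpina1e (0.931) and Hsd3b5 (0.874), for Cyp7b1 (0.919) and for Hspa5 (0.873), at 123 FPKM against 315 to 361 FPKM in the other AL libraries. It was highest for the female-biased genes Cyp2b9 (0.983), Cyp2a4 (0.931), Cyp2b13 (1.000) and Abcd2 (0.929), and for Snord72 (1.000), at 0.899 FPKM against 0. Replicate 1 of TRF at ZT8 was highest for Cyp2b9 (0.970), Cyp2a4 (0.941) and Cyp2b13 (0.979).

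Other libraries stood out for single genes. In TRF, replicate 2 of ZT8 was lowest for Jund (0.852) and Rdm1 (0.963), replicate 1 of ZT4 was lowest for Sirt1 (0.836) and highest for Srebf2 (0.940), and replicate 2 of ZT4 was highest for Saa1 (0.927). In AL, replicate 1 of ZT4 was lowest for B9d2 (0.862) and highest for Irs2 (0.908) and Srebf2 (0.852), the last at 23 FPKM against 9.47 to 10.8 FPKM in the other AL libraries, and replicate 2 of ZT4 was highest for Pgk1 (0.927) and lowest for Rn18s-rs5 (0.847).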

How the results depend on the processing

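The count of genes called moved more with the processing than its direction. In the mean of both times (1498 as reported) it was 506 with no filter on low values, 946 with all 23 WT libraries in the fit, 252 after GC and length correction, 3892 with the replicate block, 590 with both, 2402 in an additive model and 762 by voom on recovered reads, an alternative chosen after seeing the data. More genes were lower than higher in each. At ZT4 (103) it was 47 with a pseudocount of 0.1, 45 with the same sum of FPKM, 51 with library weights, 35 with all WT libraries, 37 corrected, 1602 with the replicate block, 62 with block and correction, 5 by voom and, chosen after seeing the data, 343 without both number 1 libraries of ZT8. At ZT8 (72) it was 39, 21 with no filter, 43 with the same sum, 30 with all WT libraries, 32 corrected, 1380 with the replicate block and 1 by voom. The difference between times gave 17 with no filter and 1 without both number 1 libraries of ZT8, and light against dark gave 29 with no filter.

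Leaving out 1 library gave 240 to 1696 calls in the mean, 2 to 161 at ZT4, 10 to 153 at ZT8, 0 to 11 between times and 0 to 490 for light against dark, the last without replicate 1 of AL at ZT16. In these fits a group left with 1 library is assumed to vary like the others. Without replicate 1 of AL at ZT16, the library left in its group was the shallowest of the 16, at 5.38 M reads. The difference in GC slope ran from -0.772 to -0.607, that in mitochondrial share from 2.78 to 4.36 points, that in opposite-strand FPKM from 19.2 to 24.9 and that in mt-Nd6 from 6.55 to 8.49 points. Without any 1 AL library the exact permutation p of the opposite-strand difference was 0.0571, and without replicate 1 of TRF at ZT8 that of the mitochondrial share was 0.0286.

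The sign turned on corrected values, with and without the replicate block, for Cebpa (0.79), Map1lc3a (0.36), Per1 (0.25), Slc25a1 (0.12) and Tfeb (0.48), and there Cebpa passed without and with the block (adjusted p = 0.0299 and 0.0262) and Tfeb with it (adjusted p = 0.0455). The cause of these changes was not tested. Depth of 10.71 to 14.68 M reads limits genes near 1 FPKM.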
